A study of Mus musculus with 4 samples.

Results

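A set of 8 genes tied to Parkinson disease in people, or close paralogues of such genes, were followed in the ventral midbrain of mice with and without the clock receptor REV-ERBα: the synucleins Sncb and Sncg, and Lrrk2, Vps35, Pink1, Park7, Uchl1 and Atp13a2. They were chosen by symbol, with earlier results of these data known. They are 8 of the 19938 genes with a probe set of their own on the array. Where a gene had several such probe sets, the brightest on average over the 4 arrays was read. The ventral midbrain, home of the nigral and ventral tegmental dopamine neurons, was taken from male C57BL/6J mice aged 10 to 15 weeks. RNA of wild-type mice (WT) was measured on 2 arrays and RNA of mice labelled Rev-erba knock-out (RKO) on the other 2. REV-ERBα, encoded by Nr1d1, is a nuclear receptor that represses genes of the circadian clock. All mice had been entrained to days with 12 h of light for more than 10 days, then kept for 2 days in constant darkness and killed on the next day at an hour that the labels do not state. They also do not say whether every cell of the animal lacks the gene, or whether RNA of several mice was pooled for an array. The labels call the replicates biological. The p-values rest on the spread between arrays of the same group among these 4, pooled in part over all tested genes.

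Loss of dopamine neurons of the substantia nigra and deposits of α-synuclein define Parkinson disease. The inherited forms point to a few cell functions: vesicle release at synapses, sorting of cargo between endosomes and lysosomes, removal of damaged mitochondria, defence against oxidants and breakdown of proteins. Synucleins are small proteins of nerve endings that bind vesicle membranes. PINK1 marks damaged mitochondria for removal, LRRK2 is a kinase of Rab GTPases, VPS35 is the core of the retromer, and ATP13A2 is a pump of the lysosome membrane.

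The tissue and the genotype were checked first. Values are normalized intensities on a linear scale, and a gene was tested when its mean reached the 40th percentile of all probe sets, an intensity of 167. Th, the gene of tyrosine hydroxylase and the classic marker of dopamine neurons, read 2168 and 2248 on the WT arrays. On the RKO arrays it read 3620.0 and 3664, so the defining marker of the tissue was present on every array. Nr1d1 read 2897 and 3099 in WT and 1259 and 1230 in RKO, 2.41-fold lower (log2 difference -1.27, SE 0.0589, adjusted p = 2.44e-06). The extent of the deletion is unknown here, so Nr1d1 checks the labels only as far as its probe set covers that part or the transcript is lost. Across the 13587 tested genes the median intensity was 559 on both WT arrays, 540 on RKO replicate 1 and 559 on RKO replicate 2, so RKO replicate 1 stood slightly below the others. Over all probe sets, dim ones included, the same array had the highest median (240.1, against 236 to 237 on the others).

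All 8 genes lay above the filter, and 0 of the 8 passed an adjusted p of 0.05 in limma in either direction. Over all tested genes 218 passed, or 1.6%, made up of 0.64% higher and 0.964% lower. At an unadjusted p under 0.05 there was 1 member, Sncg, against 12.8% of all tested genes. The differences of the members had a median of -0.04 on the log2 scale, beside -0.01 over all tested genes, and 6 of the 8 lay below 0, beside 56.8% of all tested genes. In 4 of the 8 the RKO arrays lay apart from both WT arrays, Sncg above and Park7, Uchl1 and Atp13a2 below, while 41.8% of all tested genes were separated in this way, 17.2% upward and 24.6% downward. The members therefore stood near the background by each of these counts. With 2 arrays against 2, an exact permutation test of a single gene cannot go below p = 0.333, so the limma fit over all genes is the test used for each gene.

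**Figure D1:**
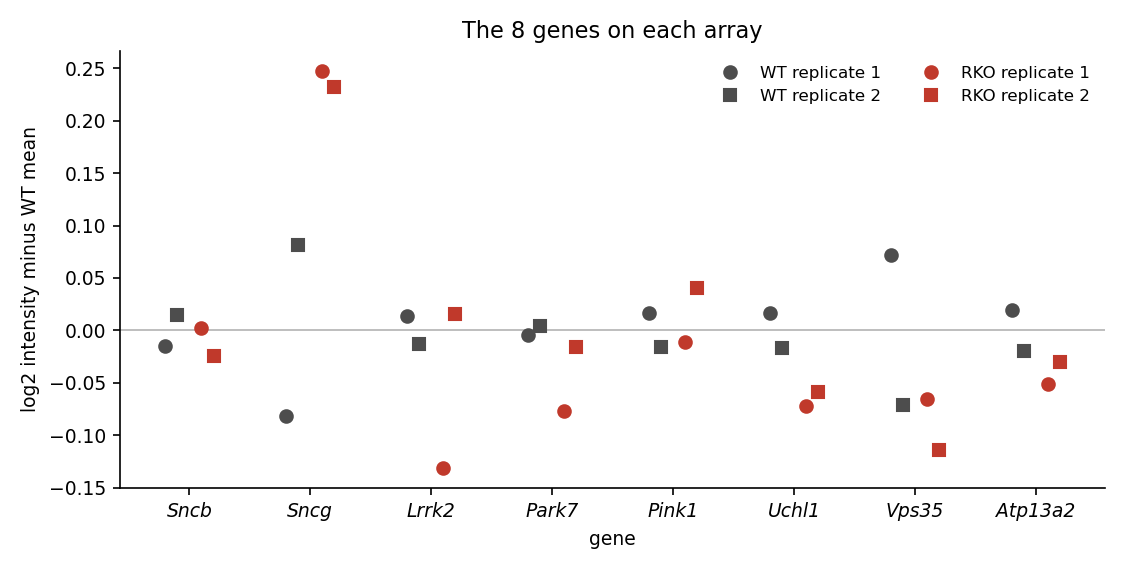
Log2 intensity of each of the 8 genes on each array, minus that gene's mean over the 2 WT arrays (vertical axis), with grey points for WT, red points for RKO, circles for replicate 1 and squares for replicate 2. Both RKO points of Sncg lie above its WT points, Lrrk2 is low on RKO replicate 1 alone, and Sncb and Pink1 overlap between the groups.

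The synucleins are taken first. Sncg encodes γ-synuclein, which is found in subsets of neurons, dopamine neurons of the midbrain among them. It read 1193 and 1336 in WT and 1499 and 1482 in RKO. Both RKO arrays were above both WT arrays, the RKO arrays were nearly equal, and the WT arrays stood apart from each other by 0.16 on the log2 scale. The log2 difference was 0.24 (SE 0.065, 95% interval 0.10 to 0.38), which is 1.18-fold, with an unadjusted p of 0.0037 and an adjusted p = 0.116, so Sncg did not pass. In size this difference exceeded that of most tested genes (97.0th percentile of absolute differences), although it was smaller than the smallest difference called among all genes, 0.26. The call turned on the processing and on the arrays kept: Sncg passed with an intensity trend in the variance prior (adjusted p = 0.00199), without WT replicate 2 (0.32, adjusted p = 0.0312), with a 60th percentile filter (adjusted p = 0.0295) and with median centring (0.23, adjusted p = 0.0472). It did not pass under the other 8 of the 12 planned settings, and without WT replicate 1 its difference was 0.16. With median centring all members, Th and Slc7a11 had the same SE, 0.0732, so the spread of Sncg itself did not enter that call.

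Sncb encodes β-synuclein, the paralogue found at nerve endings across the brain. It read 3774 and 3852 in WT and 3820 and 3748 in RKO. The groups overlapped, and the 4 arrays lay within a narrow band. The log2 difference was -0.01 (SE 0.0552, 95% interval -0.13 to 0.11, adjusted p = 0.967). The ratio of Sncg to Sncb within an array, which does not depend on the scaling of the array, was -0.07 and 0.07 on the log2 scale in WT around the WT mean, and 0.25 and 0.26 above that mean in RKO. The ratio was thus higher on both RKO arrays than on both WT arrays, by 0.25. This ratio is given as a description, without a test.

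**Figure D2:**
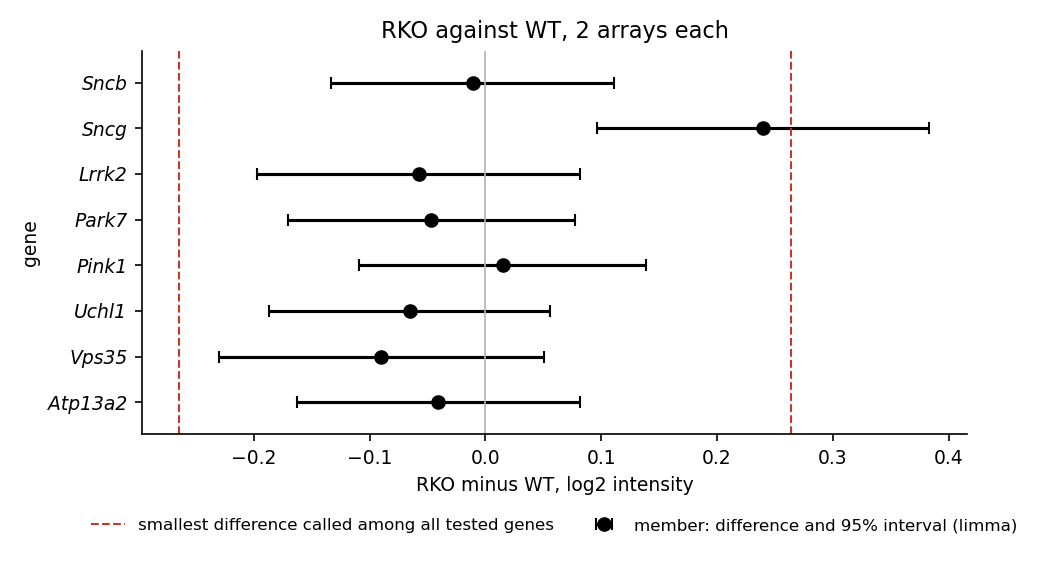
Difference between RKO and WT (horizontal axis, log2 intensity) for each of the 8 genes, with the 95% interval of the limma fit, 2 arrays per group. The dashed red lines mark 0.26 in either direction, the smallest difference called among all tested genes; the interval of Sncg reaches past it and those of the other 7 do not.

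Because REV-ERBα binds DNA, the sequence just before the start of each gene was searched for letters that clock factors are known to bind. RefSeq promoters (GRCm38.p6) were matched for 7 of the 8 genes by symbol, all but Vps35, and the 250 bases before the start given there were read. Overlap of these bases with the annotated gene was worked out for Sncg and Sncb only. Those of Sncg, the member with the largest difference, and of its paralogue Sncb are printed in lower case, 5′ to 3′ along the gene, with a match to any searched motif in capitals. The Sncg stretch is chr14:34374670-34374919 and the Sncb stretch chr13:54766623-54766845, both on the minus strand of GRCm38.p6, the latter without 27 bases that lie inside the annotated gene.
Sncg: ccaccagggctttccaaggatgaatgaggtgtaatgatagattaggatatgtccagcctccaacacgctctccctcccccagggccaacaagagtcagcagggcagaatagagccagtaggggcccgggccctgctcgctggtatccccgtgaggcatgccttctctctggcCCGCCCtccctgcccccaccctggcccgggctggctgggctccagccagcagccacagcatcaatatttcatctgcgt
Sncb: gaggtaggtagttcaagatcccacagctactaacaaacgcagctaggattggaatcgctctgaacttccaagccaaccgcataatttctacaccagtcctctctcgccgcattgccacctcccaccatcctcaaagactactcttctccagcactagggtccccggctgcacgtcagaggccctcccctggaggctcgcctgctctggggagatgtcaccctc

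The receptor half-site AGGTCA, which REV-ERBα and related receptors bind, was searched on both strands and was found in 0 of the 7 windows, where 14% of the 32851 promoters in the table held it. The E-box CACGTG was found in 0 of the 7 (6.02% of all promoters) and the D-box, as TTATGTAA or TTACGTAA, also in 0 (0.931%). The TATA box TATAAA, searched on the gene's strand alone, was found in 0 of the 7 (7.59%). The GC box GGGCGG, a common motif of promoters rich in G and C, was found in 6 of the 7 full windows (32.7%), with a pair of matches in Lrrk2 and none in Uchl1. None of these motifs contains another. In Sncg the GC box lies on the opposite strand, so the capitals read as its reverse complement, and in Sncb it lies within the bases left out of the printed stretch. G and C made up 61.6% of the Sncg window and 58.8% of the full Sncb window, with a range over the 7 genes from 48.8% in Uchl1 to 67.6% in Lrrk2 and a median over all promoters of 52.4%. A missing match says only that these letters do not stand in this window.

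Lrrk2 and Vps35 act on membrane traffic. Lrrk2 encodes a large kinase whose overactive forms cause dominant Parkinson disease. It read 411 and 403 in WT and 371 and 411 in RKO. RKO replicate 1 was the low array, while RKO replicate 2 stood level with WT. The log2 difference was -0.06 (SE 0.0633, 95% interval -0.20 to 0.08, adjusted p = 0.805). Without RKO replicate 1 it was 0.02, so its sign rested on that array. Lrrk2 was the only member with a second probe set, which read 74.9 and 79.6 in WT and 72.9 and 72.3 in RKO, below the filter, and was not tested.

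Vps35 encodes the core subunit of the retromer, which returns receptors from endosomes to the Golgi and the cell surface. It read 1914 and 1733 in WT and 1740 and 1683 in RKO. WT replicate 1 was the high array, and RKO replicate 1 lay between the WT values. The log2 difference was -0.09 (SE 0.0636, 95% interval -0.23 to 0.05, adjusted p = 0.63), the lowest of the 8 with all arrays. It was -0.02 without WT replicate 1 and -0.16 without WT replicate 2, and without WT replicate 1 Park7 and Uchl1 (both -0.05) lay lowest. Between the WT arrays alone Vps35 differed by 0.14, more than the difference between the groups.

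Pink1 and Park7 protect mitochondria and guard against oxidants, and loss of either causes recessive Parkinson disease with early onset. Pink1, the kinase that starts the removal of damaged mitochondria, read 2312 and 2261 in WT and 2269 and 2351 in RKO. The groups overlapped, with a log2 difference of 0.01 (SE 0.0561, 95% interval -0.11 to 0.14, adjusted p = 0.956). Park7 encodes DJ-1, a protein sensitive to oxidation. It read 4931 and 4958 in WT and 4687 and 4890.0 in RKO. Both RKO values were below both WT values, RKO replicate 1 by far the more, and the log2 difference was -0.05 (SE 0.0561, 95% interval -0.17 to 0.08, adjusted p = 0.831). It was -0.02 without RKO replicate 1 and -0.08 without RKO replicate 2.

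Uchl1 and Atp13a2 belong to protein breakdown and the lysosome. Uchl1 encodes a ubiquitin hydrolase that is among the most plentiful proteins of neurons. It read 3521 and 3442 in WT and 3311 and 3343 in RKO. The RKO arrays were below both WT arrays, and each pair was close. The log2 difference was -0.07 (SE 0.055, 95% interval -0.19 to 0.06, adjusted p = 0.719), which did not pass. Atp13a2 encodes a polyamine exporter of the lysosome, and its loss causes a juvenile form of parkinsonism. It read 1068 and 1039 in WT and 1017 and 1032 in RKO. Again both RKO values were lower, by little: the log2 difference was -0.04 (SE 0.0553, 95% interval -0.16 to 0.08, adjusted p = 0.86), and -0.02 without WT replicate 1.

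For the 7 genes other than Sncg the 95% intervals together ran from -0.23 to 0.14, or from 0.852-fold to 1.10-fold, and each interval included 0. These bounds do not show that the genes are equal in both genotypes, only which sizes of difference lie outside them. In absolute size the 7 differences stood between the 11.7th percentile (Sncb) and the 72.0th percentile (Vps35) of all tested genes. RKO replicate 1 was below RKO replicate 2 in 5 of the 8 members and in 68.1% of all tested genes.

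**Figure D3:**
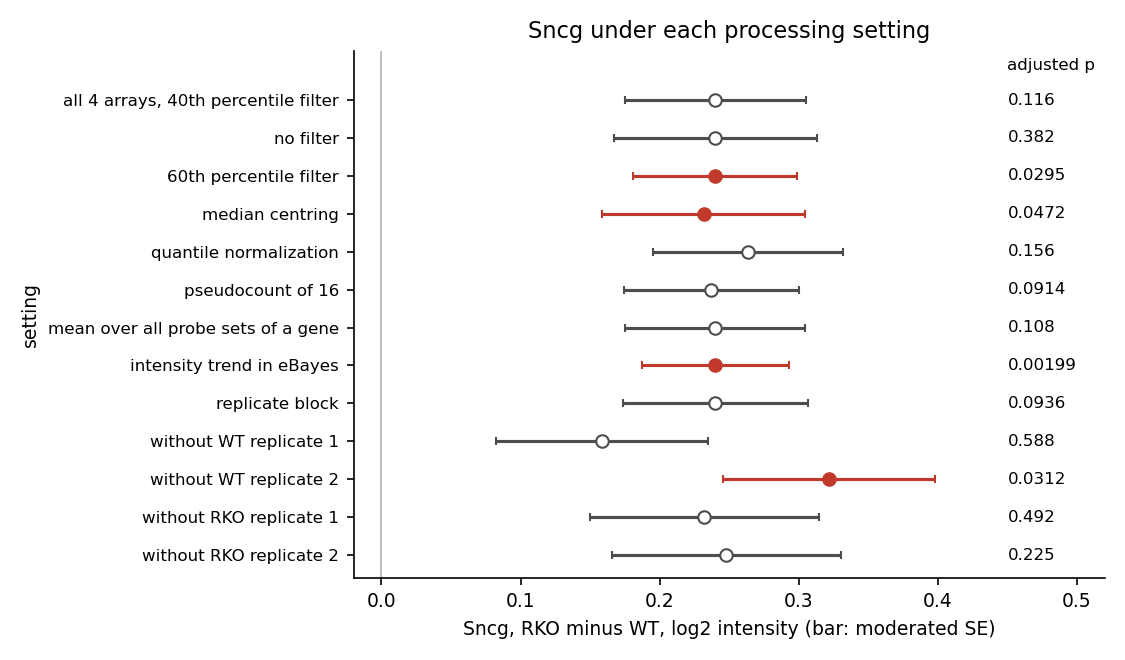
Difference of Sncg between RKO and WT (horizontal axis, log2 intensity, bars for limma's moderated SE) with all 4 arrays and under the 12 planned settings, with the adjusted p at the right. Filled red points passed an adjusted p of 0.05; every value lies above 0, from 0.16 without WT replicate 1 to 0.32 without WT replicate 2.

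Markers of cell types were read from the same fit. Of 16 markers of dopamine neurons, all above the filter, 8 rose, 0 fell and 8 did not pass. The 1 marker below 0 was Aldh1a1 (-0.10), which did not pass. The 16 markers had a median of 0.28. The mean of their log2 intensities stood at 9.74 and 9.75 on the WT arrays, against 9.99 and 10.03 on the RKO arrays. Th rose by 0.72 (1.65-fold, SE 0.0558, adjusted p = 7.45e-05), and the ratio of Th to Sncg within an array was 0.47 and 0.50 above its WT mean on the RKO arrays, so the Th signal differed by more than that of Sncg. Of 16 markers of neurons in general 0 passed (0 at an unadjusted p under 0.05), with a median of 0.02 and a mean log2 intensity of 11.63 and 11.61 in WT and 11.61 and 11.64 in RKO. Of the other marker lists, the leptomeninges, the thin membranes on the brain surface, had 6 of 12 lower (median -0.37). Astrocytes had 2 of 12 lower (-0.02), oligodendrocytes 1 of 10 lower (-0.10) and glutamate neurons 1 of 6 lower (-0.08). In the serotonin neuron list 1 of 3 tested genes was higher (median 0.29), the transcription factor gene Gata3 (0.46). Tph2 and Slc6a4 lay below the filter and were not tested, so the list does not show whether serotonin neurons differed. The hypothalamus had 2 of 7 lower (median -0.07), Pmch (-1.14) and Hcrt (-0.52), and 2 of the 7 lay above 0. Lists of GABA neurons, peripheral-type or large projection neurons, oligodendrocyte precursors, microglia, vessels, choroid plexus and blood cells had 0 calls. Their medians ran from -0.13 to 0.11. GABA neuron markers ran from -0.15 for Calb2 to 0.28 for Sox14, with 6 of 8 above 0. All 7 precursor markers lay below 0 and all 8 of the choroid plexus above 0, beside 56.8% of all tested genes below 0. At an unadjusted p under 0.05 in limma were 3 of the 4 peripheral-type markers and 4 of the 12 vessel markers, against 12.8% of all tested genes. The part that dopamine neuron transcripts have in the Sncg difference was not tested. In a bulk sample more cells of a type and more RNA per cell cannot be told apart.

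The genes that work with the members were read from 8 lists, which share some genes and held 154 tested genes in all. Of these, 0 rose and 1 fell, beside 1.6% called over all tested genes. At an unadjusted p under 0.05 in limma there were 8, or 5.19%, against 12.8% of all tested genes. Those were 1 synuclein partner (Syn3), 1 LRRK2 partner (Ppm1j), 1 WASH subunit (Washc4), 1 redox gene (Slc7a11) and 4 lysosomal genes (Atp13a4, Ctsl, Tpcn1 and Tpcn2), while the lists of mitophagy genes, ubiquitin hydrolases and other Parkinson genes held 0. The RKO arrays lay apart from both WT arrays in 67 of the 154, or 43.5%, against 41.8%, and the median difference was -0.01, as over all tested genes.

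Among 16 tested partners of the synucleins at the synapse (SNARE proteins, synapsins and chaperones) 0 passed and the median was -0.005. Values ran from -0.09 for the phospholipase gene Pld1 to 0.15 for Syn3, a synapsin. Syn3 read 909 and 955 in WT and 1001 and 1067 in RKO (adjusted p = 0.316). Of 27 tested partners and Rab substrates of LRRK2 0 passed, with a median of -0.01. They ran from -0.11 for Rab8a, a substrate of LRRK2, to 0.14 for Ppm1j, which encodes a protein phosphatase.

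Of 20 tested genes of the retromer, sorting nexins and the WASH complex, which shapes actin on endosomes, 0 passed and the median was -0.01. The lowest was Snx6, a sorting nexin (-0.14), and the highest Sorl1, a sorting receptor carried by the retromer (0.10). In the list of PINK1 and mitophagy genes 0 of 30 passed, with a median of -0.03. Differences ranged from -0.13 for Trap1, a mitochondrial chaperone that PINK1 phosphorylates, to 0.03 for the mitophagy receptor Bnip3. Of the 30, 23 lay below 0, beside 56.8% of all tested genes. Averaged over this list, log2 values were lowest on RKO replicate 1 (10.77). RKO replicate 2 (10.81) fell between WT replicate 1 (10.83) and WT replicate 2 (10.80).

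Of 28 tested lysosomal genes 0 passed, with a median of -0.02. The ends of the list were Tpcn1, an ion channel of endosomes and lysosomes (-0.20, adjusted p = 0.193), and Atp13a4, a relative of Atp13a2 (0.20, adjusted p = 0.153). Atp13a4 read 746 and 803 in WT and 882 and 897 in RKO. The lysosomal protease gene Ctsl read 1893 and 1892 in WT and 2125 and 2221 in RKO (0.20, adjusted p = 0.131). Ctsl is named after its values were seen, because it passed with the 60th percentile filter and, together with Atp13a4, with an intensity trend. Of the list of ubiquitin hydrolases and ubiquitin genes 3 were tested, all of them hydrolases related to Uchl1 (Uchl3, Uchl5 and Bap1). Of these 0 passed, with values from -0.07 for Uchl3 to 0.01 for Bap1. Of 22 tested genes linked to Parkinson disease beyond the 8, 0 passed, from -0.09 for the magnesium transporter gene Slc41a1 to 0.10 for Rit2, a small GTPase of neurons, with a median of -0.02.

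The gene that fell stood in the list of redox genes that goes with Park7, where 1 of 18 fell, 0 rose and 17 did not pass, with a median of 0.008. Slc7a11, the exchanger that brings cystine into the cell for glutathione synthesis, read 1183 and 1119 in WT and 882 and 904 in RKO. Both RKO arrays were well below both WT arrays, and the log2 difference was -0.37 (SE 0.0577, adjusted p = 0.00884). Nfe2l2, which encodes the oxidant-sensing factor NRF2, had the highest value of the list (0.12, adjusted p = 0.502). Slc7a11 lost its call with no filter (-0.37, adjusted p = 0.14), without RKO replicate 1 (-0.35, adjusted p = 0.112) and without RKO replicate 2 (-0.38, adjusted p = 0.0628), with differences of about the same size. Of 12 tested markers of the leptomeninges 6 fell and 0 rose, and 9 lay below 0, with a median of -0.37. The collagen genes Col1a1 (0.13), Col3a1 (0.08) and Col1a2 (0.07) lay above 0 without passing. The mean of the 12 log2 intensities stood at 8.93 and 8.96 on the WT arrays, against 8.59 and 8.56 on the RKO arrays. Of 12 astrocyte markers 2 fell and 0 rose, with a median of -0.02 and a mean log2 intensity of 11.08 and 11.07 in WT and 11.00 and 11.04 in RKO. The part of these markers in the Slc7a11 difference was not tested.

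**Figure D4:**
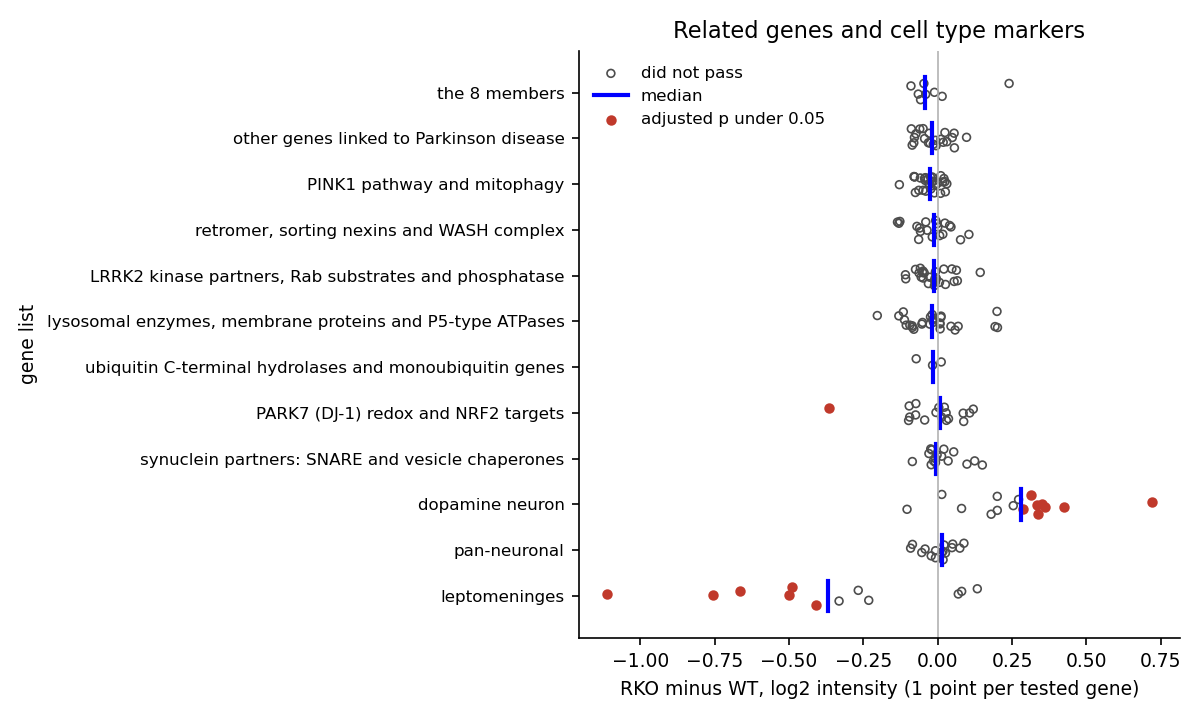
Difference between RKO and WT (horizontal axis, log2 intensity) of each tested gene in the 8 members, the 8 lists of related genes and 3 lists of cell type markers, with 1 point per gene, filled red where the adjusted p was under 0.05 and a blue bar at the median. The related lists centre near 0 with Slc7a11 as the 1 red point, while the dopamine neuron list centres at 0.28 and the leptomeninges list at -0.37.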

How the data were processed

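The deposited values were linear normalized intensities, 1 per array for each of 35556 probe sets. Per the submitters' processing notes GCOS and RMA were used, with no version or setting stated. RMA as usually run makes the arrays' distributions alike, which removes shifts common to most genes. Gene symbols came from the platform annotation, and 21789 probe sets had 1 symbol. Intensities were turned to log2 with no pseudocount. Per gene the probe set of highest mean was kept, and 6351 genes whose mean log2 intensity was under 7.38, the 40th percentile of the probe sets, were left out. RKO was compared with WT on 2 arrays each with limma 3.58.1 (lmFit, eBayes) under R 4.3.3 over all 13587 tested genes, with two-sided Benjamini-Hochberg adjustment and a threshold of 0.05; the script was tested on simulated data. Standard errors rest on 2 residual and 8.73 prior degrees of freedom. The number of arrays limits the precision. The alternatives changed the filter, scaling, pseudocount, probe set rule, variance prior, pairing and arrays kept. The members, the gene lists and the markers were chosen with earlier results of these data known, so no list is independent evidence. All members and, per related list, each gene that passed and the highest and lowest values were named, with Th and Nr1d1 for reference. No set test was run, and no gene was sought for a pattern like that of a member, since 4 arrays are too few.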

Additional observations from a re-analysis of the deposited data

How the results depend on the processing

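Over all tested genes 218 were called. The number was 31 with no filter, 455 with median centring and 499 with an intensity trend in eBayes, and from 73 to 293 when 1 array was left out. Among the 8 members the count of 0 became 1, Sncg each time, with the 60th percentile filter, median centring or an intensity trend, and ran from 0 to 1 when 1 array was left out. Among the related genes the count of 1 became 0 with no filter, 2 with the 60th percentile filter and 3 with an intensity trend, and ran from 0 to 1 when 1 array was left out. Small differences changed sign without passing: Sncb with quantile normalization (0.013), without WT replicate 2 (0.0037) or without RKO replicate 2 (0.0025), Lrrk2 without RKO replicate 1 (0.016), and Pink1 without WT replicate 2 (-0.0013) or RKO replicate 2 (-0.011). With 1 array left out they ran from -0.026 to 0.0037 for Sncb, -0.13 to 0.016 for Lrrk2 and -0.011 to 0.041 for Pink1. Quantile normalization, the pseudocount, the mean over probe sets and the replicate block left the count of members at 0. Median centring gave all members, Th and Slc7a11 the same SE, 0.0732, so its calls did not use the spread of each gene. The replicate numbers are not said to mark shared animals or days, and the deviations of same-numbered arrays correlated at -0.11 over tested genes. With the replicate number as a block 259 genes were called, 0 of them members and 1 a related gene, and Sncg had an adjusted p = 0.0936. Crossed pairing, added after seeing the data, called 696 genes, 1 of them a member (Sncg) and 4 related genes. The cause of these shifts was not tested. Leaving out an array leaves a lone array, assumed to vary like the others. Signal near background limits the second Lrrk2 probe set.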
